A study of Homo sapiens with 2 samples.

Results

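Narrow regions are here the listed regions with exactly 1 summit and a width 18 to 26 bp beyond 200 bp, the length to which each sequenced tag was extended. They were taken from ATAC-seq region lists of CAL27, an established human oral squamous carcinoma line. They number 17010 of 98152 regions (17.3%, exact 95% binomial interval 17.1 to 17.6) in the list from untreated cells and 19679 of 122399 (16.1%, 15.9 to 16.3) in the list from cells given 10 mM lactate for 24 h, on chromosomes 1 to 22 and X. Each condition is 1 library of the same line, with no other allele or agent named in the labels, and the series asks what added lactate does to the chromatin of these cells. With 1 library per condition there is no replicate check and no test: values compare these libraries, and the intervals cover counting error alone, since reads without molecular identifiers are not independent molecules. The members were chosen by width and number of summits in the same lists, so these values, and what follows from them, are description with no test.

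ATAC-seq uses the Tn5 transposase, which inserts sequencing adapters where DNA is not wrapped tightly in nucleosomes, so that read ends gather at promoters and enhancers. At such an open element the insertions usually spread over the whole stretch between flanking nucleosomes, and the listed region is several times as wide as a single extended tag. In these lists a tag reaches 100 bp to either side of its 5′ end. A region 200 bp wide can therefore stem from tags that end at a single position, and width beyond that, called excess width below, grows with the spread of the tag ends. A border lies where the pileup passes the caller's threshold, so the central stretch left after taking 100 bp off each side, called the core and 18 to 26 bp long in narrow regions, is an inferred place for most tag ends, and some may lie outside it. Positions, strands and sequences of single tags were not used here, so whether the tags of narrow regions come from open chromatin of these cells, or align uniquely, was not tested. This limit holds for all values below.

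As the files carry no sequence, the cores were looked up in RefSeq's promoter windows (build GRCh38.p14, from 250 bases before to 50 after a gene's start), which hold the core and 20 bp on each side for 18 of the 13437 regions that were narrow in both lists, called narrow pairs. Of these, 11 lie before the start of the window's gene and could be shown, and the 6 with the most tags are printed on the plus strand because they show the bases at which the inferred tag ends lie. Capitals mark the core and lower case the 20 bp on each side.
chr13:61563385-61563446, before LOC105370231: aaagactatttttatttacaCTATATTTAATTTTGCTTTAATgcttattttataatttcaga
chr14:100064146-100064207, before LOC124903379, within EVL: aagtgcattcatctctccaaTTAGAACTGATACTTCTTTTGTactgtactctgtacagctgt
chr5:41261602-41261660, before C6: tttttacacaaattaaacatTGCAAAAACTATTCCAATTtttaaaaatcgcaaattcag
chr14:31489874-31489934, before LOC105370438: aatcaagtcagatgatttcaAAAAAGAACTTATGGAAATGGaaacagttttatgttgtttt
chr16:4895583-4895641, before LOC124903637, within PPL: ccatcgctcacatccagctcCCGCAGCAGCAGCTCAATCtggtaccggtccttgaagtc
chr6:25754566-25754627, before SLC17A4: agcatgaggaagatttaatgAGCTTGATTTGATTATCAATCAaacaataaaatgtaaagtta

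These cores were rich in A and T beside promoter windows in general, and so, to a lesser degree, were their flanks. Over the 18 pairs that could be read the core held 72.6% ± 10.4 A+T (SD over sites), its 20 bp flanks 63.5% ± 12.9, and all 34789 promoter windows together 42.5%. The core exceeded its own flanks at 14 of 18 sites. No genome-wide A+T share was read for comparison. The pair within PPL, the gene of the epithelial cell-junction protein periplakin, had the lowest value at 36.8%, against 42.5% in its flanks. At CPM, a carboxypeptidase gene, the core held 77.3% and the flanks 37.5%. The 18 cores were all different, and 1 of 153 comparisons between them found a shared run of 10 bases on either strand. Narrow regions without a narrow partner in the other list looked unlike this: 76 untreated ones had 35.1% ± 13.8 in the core and 34.6% ± 12.7 beside it. Single-summit regions with an excess width of 27 to 100 bp, used for comparison below and called wider regions, had 33.6% ± 15.8 in their central 21 bp and 34.5% ± 12.3 beside it in the untreated list (466 sites). Sites inside promoter windows are a small and unusual part of the narrow pairs, so the values describe these 18 sites.

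**Figure D1:**
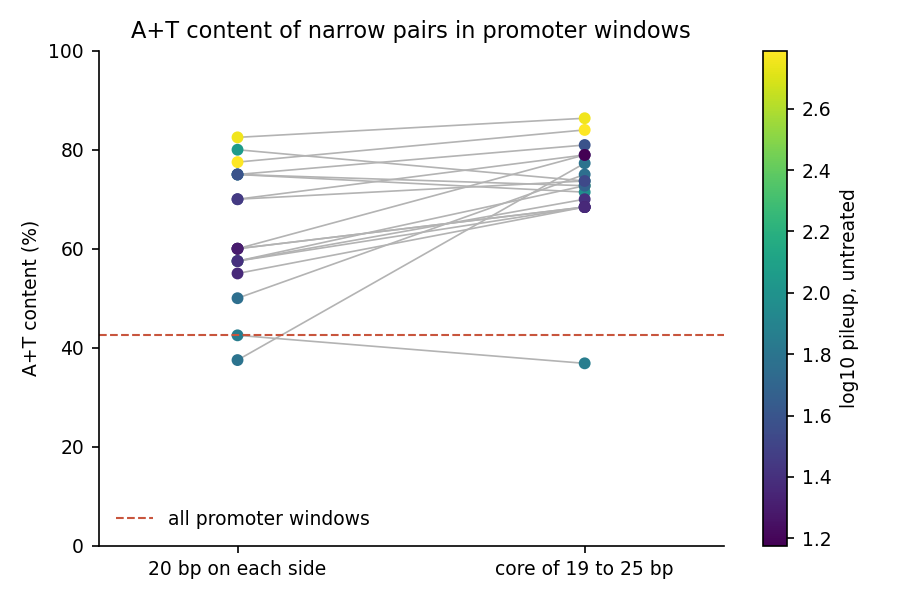
A+T content in percent of the core and of the 20 bp on each side for the 18 narrow pairs whose core lies in a RefSeq promoter window; each line joins a site, colour gives its untreated pileup (log10) and the dashed line is the mean of all promoter windows. At 17 of 18 sites the core lies above the dashed line at 42.5%, and at 14 it lies above its own flanks.

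The printed sites are the tallest of the 11 and leave out low members. Pileup counts the extended tags that cover the summit. The site before LOC105370231 had a pileup of 565 without and 853 with lactate, that before LOC124903379 had 191 and 243, and that before C6, the gene of complement component 6, had 114 and 212. The sites before LOC105370438, LOC124903637 and SLC17A4, a membrane transporter gene, had untreated pileups of 92, 71 and 48 and lactate pileups of 125, 123 and 59. All 6 regions started and ended on the same bases in both lists.

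The class began abruptly near its lower border. In the untreated list 184 single-summit regions had an excess width of 17 bp, 213 had 18 bp and 6077 had 19 bp. The lactate list held 277, 259 and 7074 regions at those widths. Numbers then fell to 352 and 463 at 26 bp, and 290 and 376 regions lay just outside at 27 bp. No region between 18 and 26 bp of excess width had more than 1 summit.

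Heights stepped up at the same place. The median pileup was 13 at 17 and at 18 bp and 25 at 19 bp in the untreated list, and 12, 11 and 25 in the lactate list. The tallest members were a little wider, with medians of 59 and 63 at 23 bp. At the upper border the median fell to 20 inside and 18 outside in the untreated list, and to 17 and 16 in the lactate list. The members at the borders of the rule, with 18 or 26 bp of excess width, were 565 untreated and 722 lactate regions, with medians of 16 and 14.

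**Figure D2:**
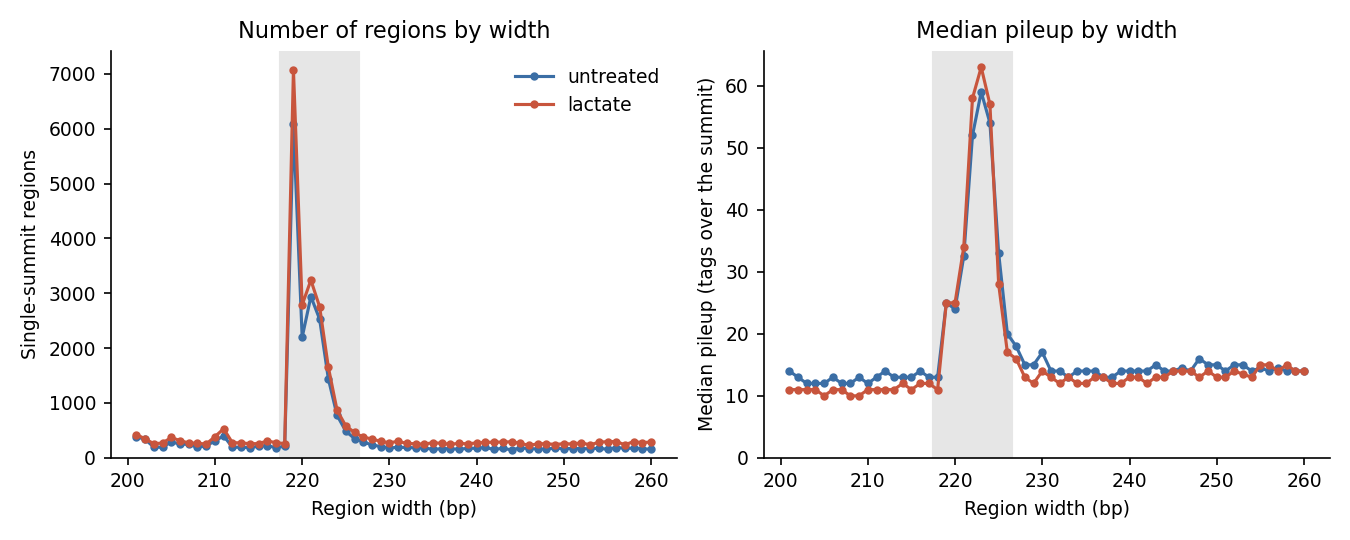
Number of single-summit regions (left) and their median pileup in tags (right) by region width in bp, for the untreated and lactate lists; the grey band marks the narrow regions and the shortest width, 200 bp, is left out. Counts rise from 213 and 259 at 18 bp beyond 200 bp to 6077 and 7074 at 19 bp, and the median pileup peaks at 59 and 63 at 23 bp.

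Summits sat in the middle. The summit lay within 3 bp of the region's centre in 73.5% (72.8 to 74.1) of the untreated and 77.8% (77.2 to 78.3) of the lactate members. The wider regions had 18.3% and 25.3%, and single-summit regions with an excess width of 17 bp or less had 20.02% and 21.6%. The median summit lay 109 bp from the region's start at an excess width of 19 bp and 110 bp at 22 bp, in both lists. Among members with 18 or 26 bp the centred share was 38.6% and 37.5%.

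Narrow regions held many of the tallest summits of both lists. Of the 100 regions with the highest pileup, 93 were narrow without and 94 with lactate. The median pileup of the members was 30 in both lists, with quartiles of 18 and 63 without and of 16 and 75 with lactate. All other regions had medians of 18 and 21. Pileups of at least 500 occurred in 152 untreated and 548 lactate members, against 8 and 40 of all other regions. Summit tags of the members added up to 1072177 in the untreated library, 5.88% of its tags, from 3.76 Mb, and to 1581695 in the lactate library, 10.3% of its tags, from 4.34 Mb. Summit tags of all regions together went from 17.2% to 32.0% of the tags, and those of all other regions from 11.3% to 21.7%. Only the highest summit of a region is counted. Broad regions and those with several summits hold further tags, so these are not shares of all tags in regions.

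Apart from the summit, the 10 kb around taller members held fewer tags than the 10 kb around other regions in the same range of height. Fold enrichment, the authors' ratio of pileup to local background, uses the tags of the surrounding 10 kb as background, from which the tag total of that window was recovered. It could be recovered for 11323 untreated and 11957 lactate members whose background exceeded the genome-wide mean. This leaves out windows with few tags, which a tall summit passes by itself. In the rest, the tags over the summit made up a median of 50% of all tags in the 10 kb (quartiles 25.8 and 73.8) in the untreated library and 70.3% (34.4 and 88.0) in the lactate library. The wider regions had medians of 12.8% and 16.3%. The tags of the 10 kb that do not lie over the summit are called the remainder. In broad regions they include tags of the region itself. At a pileup of 40 or more members were also taller than all other regions, with medians of 80 and 94 against 54 and 62.5. There the remainder held a median of 35 untreated and 20 lactate tags for members, against 237 and 178 for all other regions. At 15 to 24 it held 65 and 62 against 103 and 73. Under 15 the values were close, with 65 and 56 against 73 and 58, and the summit's share was 14.3% and 16.3% against 12.5% and 14.7%. A low summit passes the background limit only where the remainder is large, so this closeness is partly set by that limit. Kept under 15 were 929 of 2237 untreated and 838 of 3805 lactate members, against 17916 of 29954 and 13461 of 36090 others. At 15 to 24 the untreated list kept 1866 of 4693 members and 20639 of 21893 others. A summit that held all tags of its window would reach a fold of 50 under these settings, and the strongest members came close to it.

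The pair with the highest fold in both lists lay within RAP1GDS1, which encodes a partner protein of small GTPases (chromosome 4, 98389994 to 98390214, hg38). It had 2128 untreated tags with 16 more in the rest of the 10 kb, and 2819 lactate tags with 10 more, giving folds of 48.5 and 48.98. The genome-wide mean is 58.9 tags per 10 kb without and 49.7 with lactate, so apart from the summit both neighbourhoods held fewer tags than an average window. The pair with the most tags in all lay 159234 bp from PLCL1, a gene of a phospholipase C-like protein (chromosome 2, 198309097 to 198309318), with 2059 and 3375 tags. Next by untreated fold came 1 at an end of FECH, the gene of ferrochelatase, which completes haem synthesis (chromosome 18, 57544809 to 57545031, 1676 and 2245 tags). It was followed by 1 lying 1474631 bp from TENM2, a teneurin adhesion gene (chromosome 5, 165504180 to 165504398, 1371 and 1823 tags).

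The other 6 of the 10 highest untreated folds lay within RABL3 or 43961 to 975535 bp from LRRC4C, TMPRSS11A, LOC124900338, TLR4 and RND3, with 856 to 1087 untreated and 1269 to 1673 lactate tags. Of the 10, 9 were also among the 10 highest in the lactate list, where the place of the region near RND3 was taken by 1 lying 109073 bp from MSR1, a scavenger receptor gene (chromosome 8, 15998588 to 15998808). That region had 681 untreated and 1151 lactate tags, with 2 further lactate tags in its 10 kb. All 11 regions had the same start and end in both lists.

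Most members recurred on the same bases in the other library. A region of the other list overlapped 94.8% (94.5 to 95.2) of the untreated and 85.1% (84.6 to 85.6) of the lactate members. Without an overlapping region in the other list were 879 untreated members (5.17%), against 9.95% of all untreated regions, and 2937 lactate members (14.9%), against 27.7% of all lactate regions. At equal height the untreated share was near that of other regions: at a pileup of 15 to 24 it was 93.0% for members and 93.5% for all other regions, and at 25 to 39 it was 98.5% and 97.9%. In the lactate list members were above the others at those heights, with 81.0% against 71.7% and 93.1% against 89.1%.

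The overlapping region was itself narrow for 13437 members, 79.0% (78.4 to 79.6) of the untreated and 68.3% (67.6 to 68.9) of the lactate members. Of these narrow pairs 12597 (93.7%, 93.3 to 94.2) had identical start and end in both lists, and 98.1% agreed within 1 bp at both borders. The summit agreed within 3 bp in 75.5% and exactly, along with both borders, in 2013 pairs. Of 69034 untreated regions shared by both lists and narrow in neither, 2.16% had identical borders. Of 9854 wider regions with a single-summit partner it was 2.68%. Being narrow in both lists already brings the borders of a pair close together. Over all members, paired or not, 74.1% of the untreated and 64.0% of the lactate ones had identical borders in the other list, against 1.84% and 1.45% of all other regions.

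Identity of borders followed height. Among untreated members it was 22.8% (21.1 to 24.6) at a pileup under 15 and 62.3% at 15 to 24. It was 84.8% at 25 to 39 and 94.0% (93.4 to 94.6) at 40 or more. All other untreated regions had 3.04% and 1.95% in the lowest and highest of these bins. The wider regions were between the classes when tall: at 40 or more 31.4% (27.8 to 35.3) of 617 untreated and 15.3% (13.5 to 17.4) of 1357 lactate ones had identical borders. Untreated members with no narrow partner had a median pileup of 15, against 38 for those with one. They also lay at gene ends more often, in 5.91% (5.15 to 6.73) against 1.59% (1.38 to 1.81), a gene end being up to 1 kb from where a protein-coding gene starts or stops in the annotation. In the lactate list the gene-end shares were 3.94% (3.47 to 4.45) without and 1.59% with a narrow partner. The narrow class thus held a large set of tall regions with fixed borders and a smaller set of low ones that lay at gene ends more often. Of the 1380 untreated members whose partner had an excess width of 17 bp or less, the median pileup was 16 and that of the partner 10.

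**Figure D3:**
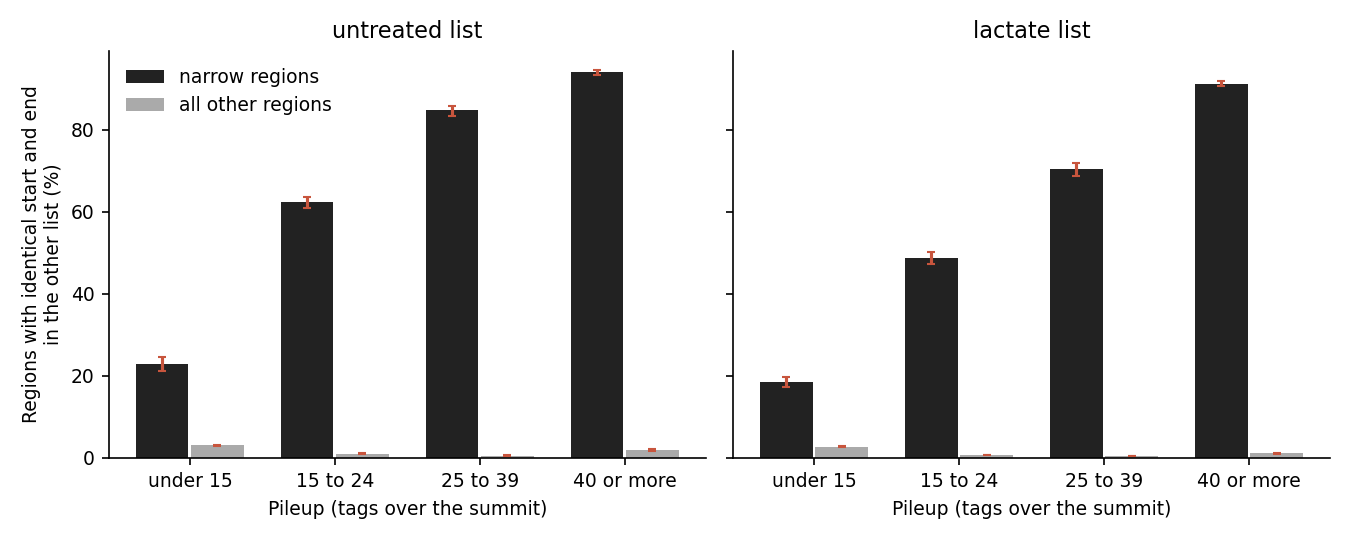
Share in percent of regions whose start and end are identical in the other list, by pileup in tags, for narrow and all other regions of the untreated (left) and lactate (right) lists; bars are shares with exact 95% binomial intervals. At a pileup of 40 or more it is 94.0% and 91.3% for narrow regions against 1.95% and 1.08% for all others.

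Narrow pairs were taller in the lactate library per tag sequenced, as shared regions in general were. The ratio given here is lactate over untreated pileup, each divided by its library's tags. Its median over the 13437 pairs was 1.56 (order-statistic interval 1.54 to 1.57), with quartiles of 1.15 and 1.98, and 84.0% of pairs were above 1. Shared regions narrow in neither list had a median of 1.69 (1.69 to 1.70). A ratio of at least 2 was reached by 3222 pairs (24.0%), against 30.0% of all untreated regions with a lactate partner. A ratio of at most 0.5 was found in 39 pairs (0.290%), against 0.292% of all and 0.123% of those narrow in neither list. Beside all shared regions, which include the pairs, the first share was lower and the second about equal. Beside regions narrow in neither list the second share was higher. The pileups of a pair in the libraries had a Pearson correlation of 0.93 on the log2 scale across pairs, which are not independent replicates.

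The ratio rose with the number of tags and narrowed. Pairs with 20 to 39 summit tags in both libraries together had a median of 1.10, and the 817 pairs with 640 or more had 1.87, with quartiles of 1.71 and 2.03 and every pair above 1 on this scale. Shared regions narrow in neither list went from 1.48 to 2.01 at 160 to 319 tags and 1.77 at 640 or more, where there were 69 of them. A pair enters only when called in both libraries, and the part of that in the low ratios was not tested. At 640 or more tags the SD of the log2 ratio was 0.21 over narrow pairs and 0.36 over the other shared regions, where counting error alone gives 0.10 for each. By chromosome the median ratio of the pairs ran from 1.52 on chromosome 5 to 1.66 on chromosome 18, and of the other shared regions from 1.59 on chromosome 4 to 1.82 on chromosome 22. By the number of genes nearby the pairs' median ran from 1.54 with 1 to 4 genes within 500 kb to 1.60 with 10 to 19.

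**Figure D4:**
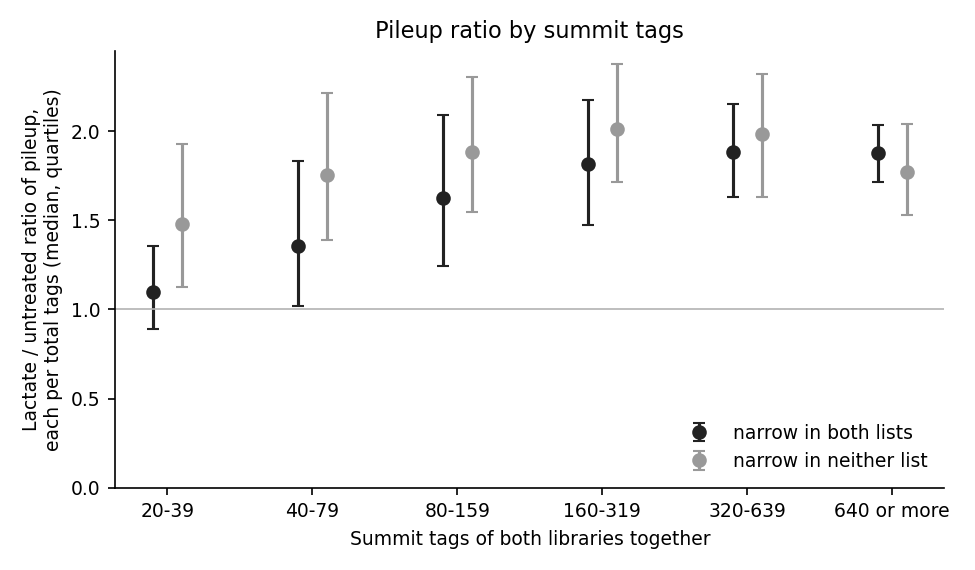
Ratio of lactate to untreated pileup, each per total tags of its library, by summit tags of both libraries together; points are medians and bars quartiles over regions, for regions narrow in both lists and in neither list. The narrow pairs rise from 1.10 at 20 to 39 tags to 1.87 at 640 or more, and their quartiles close in to 1.71 and 2.03.

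Single pairs departed from this in both directions. Among pairs with at least 40 tags, the highest ratio was at a region 1059503 bp from ZEB2, a repressor of epithelial genes (chromosome 2, 145579622 to 145579842), with 15 untreated and 74 lactate tags and a ratio of 5.85 (conditional Poisson interval 3.33 to 11.0). The next lay 543419 bp from SPRY1, an inhibitor of receptor tyrosine kinase signalling (chromosome 4, 123947179 to 123947397), with 23 and 109 tags (5.62, 3.56 to 9.23). Regions 42451 bp from EBF2, within COMMD10 and 66886 bp from RALYL had ratios of 5.61, 5.46 and 5.38. The lowest ratio was 0.251 (0.130 to 0.452), 10444 bp from RNF125, a ubiquitin ligase gene (chromosome 18, 32008162 to 32008381), with 66 untreated and 14 lactate tags. The next lay 544749 bp from API5, an apoptosis inhibitor gene, with 55 and 13 tags (0.280, 0.140 to 0.519). Regions 113867 bp from RIPK2, 103178 bp from CALCRL and within POT1, which encodes a telomere-binding protein, had 0.362, 0.367 and 0.384. These 10 pairs were the extremes of a ranking, and their intervals do not account for that choice. All 10 had identical borders in both lists.

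Members listed in a single library were low beside the pairs. The strongest untreated ones without any lactate region lay 578758 bp from RGS18 (39 tags), 19046 bp from MYOM3 (64 tags) and within EPHA6, an ephrin receptor gene (chromosome 3, 97342648 to 97342869, 36 tags). Further ones lay 522502 bp from LOC124900192 and 89272 bp from ZNF536 (28 tags each). The strongest lactate ones lay within WNK3, a kinase gene of ion transport control (51 tags), and 130452 bp from FAM170A (46). Further ones lay 12517 bp from NXPH1 (39), 864925 bp from DPP10 (chromosome 2, 116710705 to 116710924, 36), and within MMRN1 (36). All 10 had an excess width of 19 to 24 bp. The lowest pileup listed anywhere was 6 without and 5 with lactate.

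Narrow regions lay at gene ends less often than other listed regions. Their share as a whole was near that of the genome itself, but the 1.59% of the pairs was below it. The 5.91% of untreated and 3.94% of lactate members without a narrow partner were above it. At gene ends lay 2.49% (2.26 to 2.74) of the untreated members, 10.7% (10.2 to 11.3) of the wider regions and 16.5% (16.2 to 16.7) of all other regions. The lactate list gave 2.33% (2.13 to 2.55), 8.14% (7.77 to 8.52) and 14.5% (14.3 to 14.7). Single-summit regions with an excess width of 17 bp or less lay between members and wider regions, at 5.73% without and 4.92% with lactate. Of the length of these chromosomes 2.39% lies within 1 kb of a gene end, with unsequenced stretches counted. A region counts when any of its bases lies there, so the measures differ somewhat. The share fell with height among untreated members, from 3.31% at a pileup under 15 to 1.82% at 40 or more, while in all other regions it rose from 6.997% to 32.0%. RefSeq promoter windows were touched by 125 untreated members (0.735%), against 12.5% of all other regions. Members with 18 or 26 bp of excess width lay at gene ends in 7.96% and 7.89%. Protein-coding genes themselves held 44.4% of the members of each list, against 54.2% of other untreated and 53.3% of other lactate regions. Genes take up 41.6% of the length.

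Fewer genes lay in their wider surroundings than around other listed regions. A median of 4 protein-coding gene midpoints lay within 500 kb of a member (quartiles 1 and 7) in both lists, against 7 (4 and 14) for all other regions. No gene midpoint lay within 500 kb of 14.96% (14.4 to 15.5) of the untreated members, 3.11% of the wider regions and 3.87% of all other regions. Untreated single-summit regions with an excess width of 17 bp or less were intermediate, with 9.15% and a median of 5 genes within 500 kb. Where no gene was that near, 44.7% of all untreated regions listed were narrow, and where there were 20 or more it was 6.20%. The median distance from summit to the nearest gene end was 71322 bp in the untreated list, against 21877 bp for all other regions. It was 42586 bp for single-summit regions with an excess width of 17 bp or less.

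**Figure D5:**
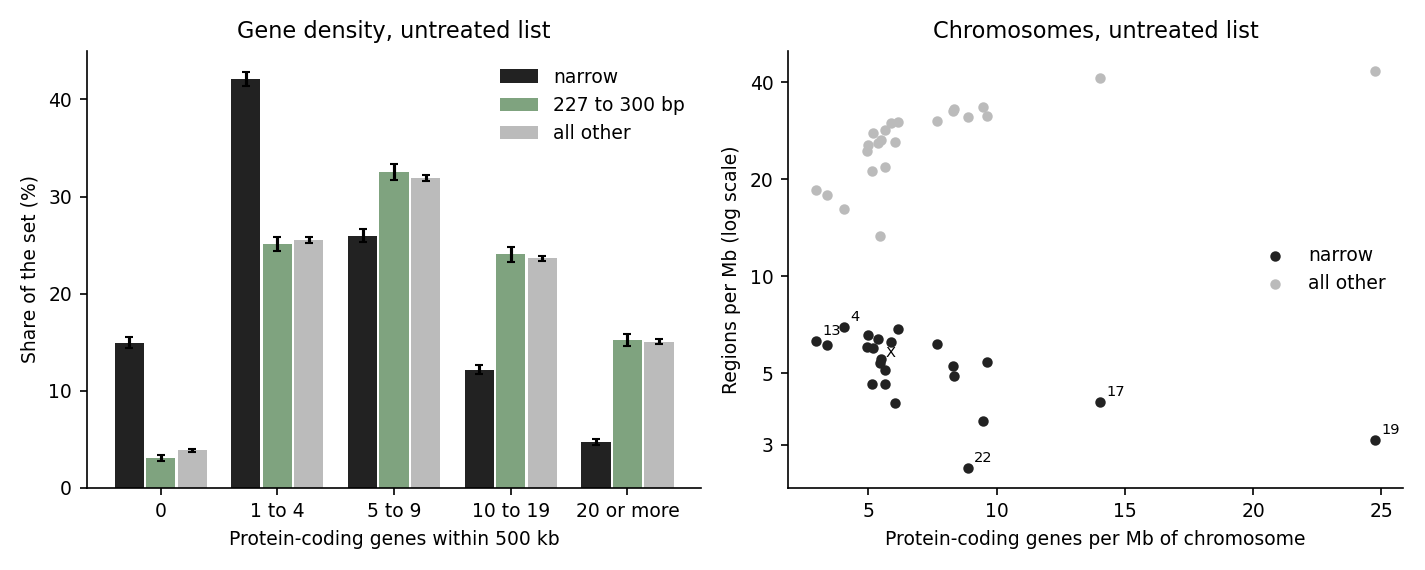
Left, share in percent of narrow, wider and all other untreated regions by the number of protein-coding gene midpoints within 500 kb, with exact 95% binomial intervals; right, regions per Mb (log scale) against protein-coding genes per Mb, each point a chromosome. Narrow regions lie at 0 genes in 14.96% and at 20 or more in 4.75%, and per Mb they run from 2.54 on chromosome 22 to 6.93 on chromosome 4 while the others run from 13.3 on X to 43.4 on 19.

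Across chromosomes the members were spread somewhat more evenly than the other regions, and tended to be denser where genes were fewer. Density was taken per Mb of chromosome up to the last listed region, unsequenced stretches included. The untreated list held 6.93 members per Mb on chromosome 4, 6.30 on 13 and 6.09 on 18, which have 2.96 to 4.05 genes per Mb. It held 4.06 on chromosome 17 and 3.11 on 19, which have 14.04 and 24.8 genes per Mb. The X chromosome, with 5.43 genes per Mb, had 5.38 members. All other regions had 16.2 on chromosome 4, 18.5 on 13, 17.9 on 18, 13.3 on X, 41.2 on 17 and 43.4 on 19. Members made up 30.0% (28.6 to 31.4) of the untreated regions of chromosome 4 and 6.68% (5.77 to 7.68) of those of chromosome 19. Over the 23 chromosomes, density against genes per Mb had a Pearson r of -0.62 for members and 0.80 for all other regions (Spearman -0.62 and 0.90), and in the lactate list -0.57 and 0.82. These describe 23 points that share 1 library. The copy number of each chromosome in these cells was not used here.

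Few members lay close together. The median distance between neighbouring summits was 53608 bp without and 46970 bp with lactate, and 0.717% and 0.762% of members had another within 1 kb. Of the wider regions 4.91% and 3.83% had another of their class that near, with medians of 49120 and 32716 bp. Single-summit regions with an excess width of 17 bp or less had medians of 52359 and 49597 bp, near those of the members, and 2.99% and 2.39% within 1 kb. The nearest region outside the narrow class was 19517 bp away at the median in the untreated list, against 7554 bp from a wider region to the nearest region of neither class. The closest run of 3 lay within DDX60, an interferon-induced helicase gene (chromosome 4, 168274656 to 168276638), with 1758 bp from first to last summit. Its members had 55, 35 and 35 untreated and 75, 23 and 26 lactate tags. In these raw tags, not scaled for depth, the first had more with lactate and the others fewer. No counting interval was taken for them, so a difference in direction between neighbours is not established. The next 4 runs, of 3407 to 5757 bp, lay 244926 bp from ELAVL2, 987884 bp from CHORDC1, 100066 bp from OGFRL1 and within ZPBP.

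Long genes held the most pairs. LRP1B, a gene of a large lipoprotein receptor-like protein (chromosome 2, 140231423 to 142131016), held 21 pairs, and 27 of its 61 untreated regions were narrow. EYS, a photoreceptor gene, held 18, DMD, the dystrophin gene, 16, and ROBO2, an axon guidance receptor gene, 16. NAALADL2 held 14, ERBB4, MGAT4C, PCDH15 and ROBO1 13 each, and CDH18, a cadherin gene, 12. Per Mb these 10 genes had 7.12 to 14.7 pairs, against 4.44 over all chromosomes. They were chosen for their number of pairs, so that this is a description.

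Among genes with at least 5 pairs, APC, the antagonist of Wnt signalling lost in many colon tumours, had the most per Mb. It held 6 pairs in 0.139 Mb, and its 10 untreated regions included 6 narrow ones. The tallest (chromosome 5, 112818321 to 112818541) had 479 untreated and 713 lactate tags. The second (112747651 to 112747870) had 119 and 198 tags. The others had 14 and 22, 20 and 30, 19 and 15, and 40 and 15 tags, the last with a ratio of 0.444. All 6 had identical borders, and 4 of them had ratios of 1.76 to 1.97. CBLB, a ubiquitin ligase gene, held 5 pairs (23.4 per Mb), and DDX10, a helicase gene, held 6 (21.8 per Mb).

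Few pairs lay at gene ends, and the tallest of these were as narrow and as fixed as the rest. After the FECH pair came 1 at an end of KIF2A, a kinesin gene, within the neighbouring DIMT1 (chromosome 5, 62391069 to 62391290, 681 untreated and 1052 lactate tags, ratio 1.83). The pair at an end of ANGPTL1, within RALGPS2 (chromosome 1, 178850330 to 178850553), had 487 and 855 tags and a ratio of 2.08. That at MINPP1, an inositol phosphate phosphatase gene (chromosome 10, 87552257 to 87552481), had 484 and 757 and was 1 bp wider in the lactate list. The others were at ZNF233, INTS9, DEFB115, HMGA2, DCLK3 and TAFA1, with 361 to 430 untreated and 572 to 633 lactate tags and ratios of 1.69 to 1.92. Per total tags all 10 ratios were above 1, as were those of all 817 pairs with 640 or more tags, to which these 10 belong. Relative to the median ratio of all shared regions, 1.66, 9 of the 10 and 664 of the 817 were above 1, and FECH had 0.957.

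Regions at the ends of marker genes were also looked up, and they do not establish the line's identity. Of 8 squamous or epithelial genes, 7 had a gene-end region in each list (KRT5, KRT8, KRT18, CDH1, EPCAM, SFN and DSP), and TP63 had none at its outer ends. KRT8 and KRT18 had the same highest pileups, 54 without and 90 with lactate, and whether 1 region counts for both was not checked. The share of all protein-coding genes with such a region was not taken, so these counts have no background. Of 6 genes of other cell types, PTPRC, PECAM1 and MLANA had none in either list. CD3E and COL1A1 had 1 in each, with pileups of 10 and 21 and of 54 and 67, and PDGFRB had 1 without and 2 with lactate, up to 72 and 121. The highest at KRT5 were 61 and 83, so gene-end height did not separate these lists of genes. Among these, narrow regions lay at the ends of EPCAM in both lists and of DSP in the lactate list.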

How the data were processed

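The deposited lists come from the authors' peak caller, MACS 2.2.7.1 per the file headers, run on each library alone without a control (q-value threshold 0.05, no model, shift of 100 bp, extension of 200 bp). As tools, the notes on processing by the submitters list BWA 0.7.12, fastp 0.20.0 and MACS2 2.1.0, with hg38 as build. Pileup is a deposited signal, not scaled for depth, and fold enrichment a deposited ratio to the local background. Per the file headers the libraries hold 18248413 untreated and 15401276 lactate tags. Starts, ends and summits were deposited in bp.

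Narrow regions measure 218 to 226 bp, wider ones 227 to 300 bp. Rows were joined to regions by chromosome, start and end, and 98152 untreated and 122399 lactate regions on chromosomes 1 to 22 and X were used. Partners overlapped by at least 1 bp, the tallest being taken, and counts equalled those of bedtools 2.31.1. The background was recovered as (pileup + 1) / fold − 1, and a −log10 p from the Poisson distribution. The scripts were tested on simulated data. Genes came from a RefSeq table (GRCh38.p14, 19974 protein-coding entries).

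Members, lists and rules for names were chosen with earlier results of these data known. Named regions are the 10 highest folds per list, the 5 strongest without a partner, the 5 pairs with most tags, the 5 highest and lowest ratios, 10 pairs at gene ends, 10 genes with most pairs and 5 with most per Mb, and 5 runs. Some of the genes with most pairs per Mb are not reported here. No genome was used here, so base composition over all members and the sequences first planned were not read. The promoter-window sites and the 6 printed sequences replaced them and were chosen after the data were seen.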

Additional observations from a re-analysis of the deposited data

How the results depend on the processing

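Each value rests on 1 library per condition. Among members below a pileup of about 15 borders seldom coincided, and the part of depth in this was not tested. No paired analysis was possible because both conditions have 1 library, and none could be left out. Of 58 alternative values, 24 stayed within the counting interval (or 1.5 times a count) and 34 moved; where 2 values follow, the untreated list comes first. No region of these widths had several summits, so dropping that rule could change nothing. Its values are among the 24 and are no check of stability. With the commonest width alone there were 6077 and 7074 members (6.19% and 5.78% of the lists), a narrow partner for 75.7% and 65.0%, medians of 154595 and 128595 bp to the next member and of 3 and 3 genes within 500 kb, a pair ratio of 1.47, and, in the lactate list, an overlap of 85.6% and a gene-end share of 2.01%. With a recomputed −log10 p of at least 7 the members were 20.9% and 18.8% of the lists, 95.7% and 87.9% were overlapped, 82.0% and 71.4% had a narrow partner, 2.11% and 2.09% lay at gene ends, the untreated median was 3 genes and the lactate spacing 48922 bp. A reciprocal overlap of 50% gave 92.6% and 83.7%. Identical start, end and summit were found for 11.8% and 10.2%. Gene ends of 5 kb held 8.67% and 8.68%, and windows of 100 kb and 1 Mb held medians of 1 and 8 genes in both lists. Relative to the median of all shared regions the pair ratio was 0.94, below 1, where per total tags it was 1.56, since the median over shared regions was higher than that over the pairs.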
